A study of Mus musculus with 45 samples.

Results

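The 10 arrays described here held nucleus accumbens RNA of mice that had breathed ethanol vapor, 5 from mice taken 72 h after the last chamber session and 5 from mice taken 8 h after it. They were chosen by the treatment and time in their titles out of 45 arrays of this brain region, and the same 2 times in mice that had breathed air (6 arrays at 72 h and 5 at 8 h) served for comparison. All mice were adult male C57BL/6J, and each array held RNA of 1 mouse. CIE (chronic intermittent ethanol) mice went through 4 cycles, each of 4 days with 16 h of vapor a day and then 7 days without, at 10 to 13 mg of ethanol per l of air, and each cycle was preceded by an injection of 1.6 g/kg ethanol together with 1 mmol/kg pyrazole, which blocks the enzyme alcohol dehydrogenase. Ctrl mice were handled alike, with saline and the same pyrazole injection, so that pyrazole is common to all groups. The time since pyrazole is not, and was longer at 72 h than at 8 h in both treatments. The 72 h and 8 h groups also differ in the time of day at which tissue was taken, because the times are not a whole number of days apart. In CIE mice alone the hours since ethanol, the hours since pyrazole and the time of day cannot be told apart.

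The nucleus accumbens is the ventral part of the striatum and takes part in reward and motivation. Most of its neurons are medium spiny neurons, inhibitory cells that receive dopamine. Withdrawal from ethanol is a stressful state in which glucocorticoid hormones of the adrenal gland are released. They act through the glucocorticoid receptor, which switches on genes such as Tsc22d3 and Sgk1. The endoplasmic reticulum (ER) chaperones fold secreted proteins, and their genes share a promoter element that responds to unfolded protein. Notch receptors act through the DNA-binding protein Rbpj on genes of the Hes family, which keep progenitors and astrocytes from becoming neurons.

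Values are log2 RMA values, a log2 scale of probe brightness, so that a difference of 1 is a doubling. The number of arrays limits the precision, and array medians lay between 6.94 and 6.96. A change is the mean at 72 h minus the mean at 8 h, with its standard error (SE) from limma over all 45 arrays. A probeset was called where its p adjusted over all 45037 probesets was 0.01 or less. The medium spiny neuron markers were bright in the 10 CIE arrays, and Drd1, the D1 dopamine receptor, averaged 12.65 at 72 h and 12.52 at 8 h. Markers of neighbouring tissue varied between animals. The mean of 13 cortical pyramidal neuron markers ran from 8.68 to 9.54 at 72 h, with replicate 63 lowest, and from 8.8 to 9.61 at 8 h, with replicates 51 and 1 lowest. Replicate 63 at 72 h also had the highest mean of 16 oligodendrocyte and myelin markers among the CIE mice of both times (12.3), and the part of these markers in the results below was not tested beyond leaving out that array.

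In CIE mice 130 of 45037 probesets (0.289%) were called between 72 h and 8 h. Of these, 31 (0.0688%) were higher and 99 (0.22%) were lower at 72 h, standing for 22 and 71 named genes. In Ctrl mice 39 probesets (0.0866%) were called, 9 higher (0.02%) and 30 lower (0.0666%). The CIE and Ctrl mice share no animals, and 13 probesets were called in both, 10% of the CIE calls and 33.3% of the Ctrl calls. Of the 130 CIE calls, 122 had the same sign in Ctrl mice and 124 were larger in CIE mice, with a median ratio of the Ctrl change to the CIE change of 0.444. These 130 were chosen by their size in CIE mice, so that smaller values in Ctrl mice are partly set by the choice. The difference of the CIE and Ctrl changes itself was called for 3 probesets (0.00666%), 2 of Hes5 and 1 of Xdh, and for 8 (0.0178%) at an adjusted p of 0.05.

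**Figure D1:**
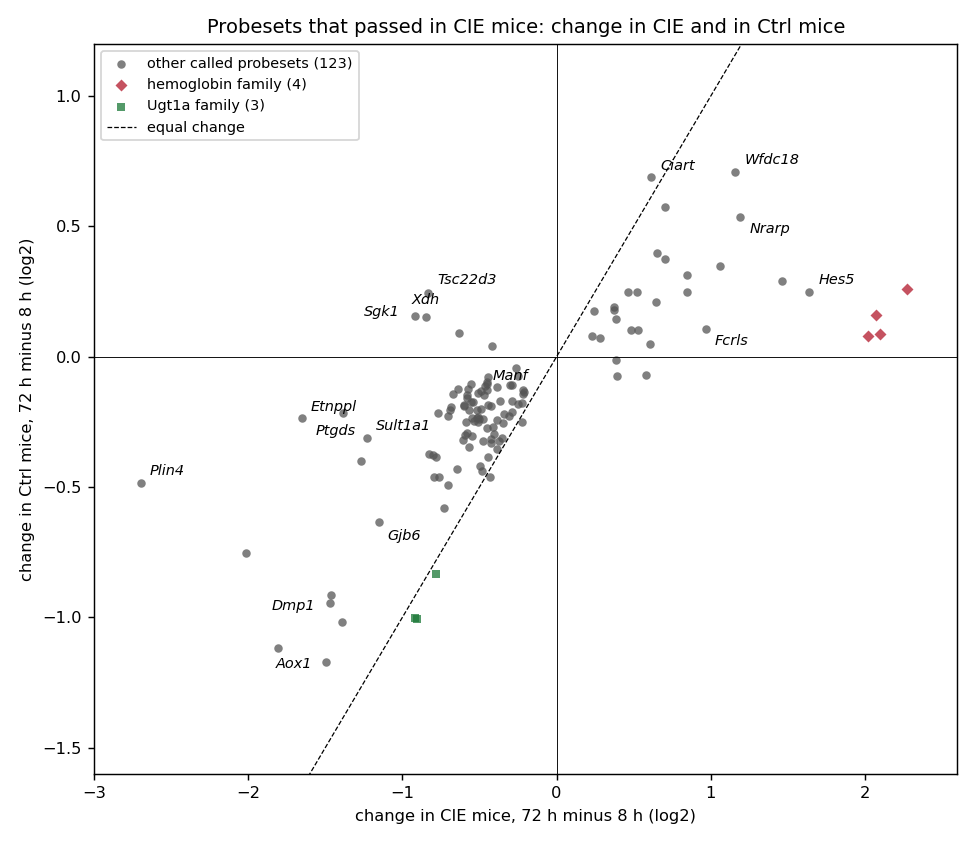
Change from 8 h to 72 h of the 130 probesets called in CIE mice, with the change in CIE mice on the x axis and in Ctrl mice on the y axis (both 72 h minus 8 h, log2). Points near the dashed line, such as Ciart and the 3 Ugt1a family probesets, changed alike in both; Hes5, the 4 hemoglobin family probesets, Fcrls and Plin4 lie far from it.

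The largest rise of a probeset with a single gene symbol was in Hes5 (chromosome 4, 154960626 to 154962372), a repressor of neuronal genes and a direct target of Notch. At the more changed of its 2 probesets its values were 9.05, 8.83, 9.29, 8.88 and 9.09 in CIE mice at 72 h, against 7.54, 7.52, 7.12, 7.13 and 7.63 at 8 h. All 5 mice at 72 h lay above all 5 at 8 h, and the change was 1.64 ± 0.14 (SE; adjusted p = 4.42e-10), which is 3.12-fold. In Ctrl mice Hes5 lay between 8.75 and 9.18 at 72 h and between 8.47 and 9.08 at 8 h, which overlap, and its change was 0.25 ± 0.13. The difference of the changes was 1.39 ± 0.19, with an adjusted p of 0.000465. In tissue RNA, fewer cells of a type and less RNA per cell cannot be told apart.

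The promoter of Hes5, shown because it holds the sequence that Rbpj binds, runs 5′ to 3′ over 300 bases around the start (GRCm38.p6, chr4:154960673-154960972, plus strand, RefSeq). Capitals mark matches to TTCCCAC on either strand, which are found in 6.38% of 32851 RefSeq promoters of this length.
Hes5: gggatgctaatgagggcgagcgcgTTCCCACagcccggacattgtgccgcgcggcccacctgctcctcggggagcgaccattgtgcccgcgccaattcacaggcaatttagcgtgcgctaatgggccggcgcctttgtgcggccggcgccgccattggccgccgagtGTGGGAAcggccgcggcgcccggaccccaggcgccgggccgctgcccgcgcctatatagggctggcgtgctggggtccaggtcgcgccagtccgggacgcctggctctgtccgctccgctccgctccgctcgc
There were 2 matches in Hes5. Of 23 Notch pathway genes, 18 were matched to a promoter, and Hes5, Hey2 and Lfng held the motif.

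Nrarp, a feedback inhibitor of Notch signalling, was the next. It was at 10.3, 10.1, 10.31, 10.14 and 10.34 in CIE mice at 72 h, against 9, 9.11, 8.94, 8.81 and 9.36 at 8 h. The groups did not overlap, and the change was 1.19 ± 0.13 with an adjusted p of 1.29e-07. In Ctrl mice the groups did not overlap either, with 10.08 to 10.47 at 72 h against 9.52 to 10.02 at 8 h, and a change of 0.54 that passed at 0.05 only (adjusted p = 0.0465). The difference of the changes, 0.66 ± 0.18, did not pass (adjusted p = 0.534). The other probeset of Nrarp changed in the same direction in CIE mice and was not called. Of 23 measured Notch pathway genes Hes5 and Nrarp were called higher and none lower. Over all genes, each at its brightest probeset, 0.0934% were called higher. In 5 of the 23, Hes5 and Nrarp among them, every CIE mouse at 72 h lay above every one at 8 h. That held for 1.39% of all genes, and in none of the 23 did the mice at 72 h all lie below. An unadjusted p under 0.05 was found for 6 of the 23, against 7.1% of all probesets. The median change was 0.071 in CIE mice and -0.005 in Ctrl mice. Over all genes it was 0.0075 in CIE and -0.0221 in Ctrl mice. Hey1, another Notch target, changed by 0.28 (adjusted p = 0.0408), and Hes1 by -0.09 (adjusted p = 0.992). The receptor Notch1 and the ligand Dll1 each changed by 0.28 and were not called, with adjusted p of 0.207 and 0.436.

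Among neural progenitor regulators, 4 of 19 genes were called higher at some probeset. At the brightest 2 were called higher, against 0.0934% of all genes. Fzd2, a Wnt receptor, rose by 0.64 ± 0.09 (adjusted p = 2.25e-05), with 8.49 to 8.62 in CIE mice at 72 h and 7.79 to 7.98 at 8 h. Nr2e1, a nuclear receptor that maintains neural stem cells, rose by 0.6 (adjusted p = 0.00963). Sox21, a SoxB transcription factor, rose by 0.58 (adjusted p = 0.000166), with 7.67 to 7.89 at 72 h and 6.91 to 7.38 at 8 h, but at its brighter probeset by 0.33 with an adjusted p of 0.0409. Id4, an inhibitor of bHLH transcription factors, rose by 0.48 (adjusted p = 0.00796), and by 0.31 at its brightest probeset (adjusted p = 0.119). None of the 4 groups of 72 h values overlapped those at 8 h in CIE mice. In Ctrl mice these genes changed by 0.21, 0.05, -0.07 and 0.1 for Fzd2, Nr2e1, Sox21 and Id4. The difference of the changes passed at 0.05 for Sox21 (0.65, adjusted p = 0.0493) and not for the other 3 (adjusted p of 0.581 for Fzd2, 0.794 for Nr2e1 and 0.922 for Id4).

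Fcrls, an Fc receptor-like gene that marks resident microglia, was at 9.35, 9.39, 9.4, 9.27 and 9.26 in CIE mice at 72 h, against 8.35, 8.26, 8.57, 8.37 and 8.29 at 8 h. The change was 0.97 ± 0.12, or 1.96-fold (adjusted p = 1.7e-06). In Ctrl mice the groups overlapped, at 9.1 to 9.42 at 72 h and 9.1 to 9.31 at 8 h, and the difference of the changes was 0.86 (adjusted p = 0.0449). Fcrls was the only gene called among 21 microglia markers, against 0.0934% of all genes called higher at their brightest probeset. Gpr34 changed by 0.41 and P2ry12 by 0.31, with adjusted p of 0.12 and 0.211, and Aif1, Csf1r and Tmem119 by -0.01, -0.05 and -0.09. The list median was 0.062 in CIE and 0.074 in Ctrl mice.

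**Figure D2:**
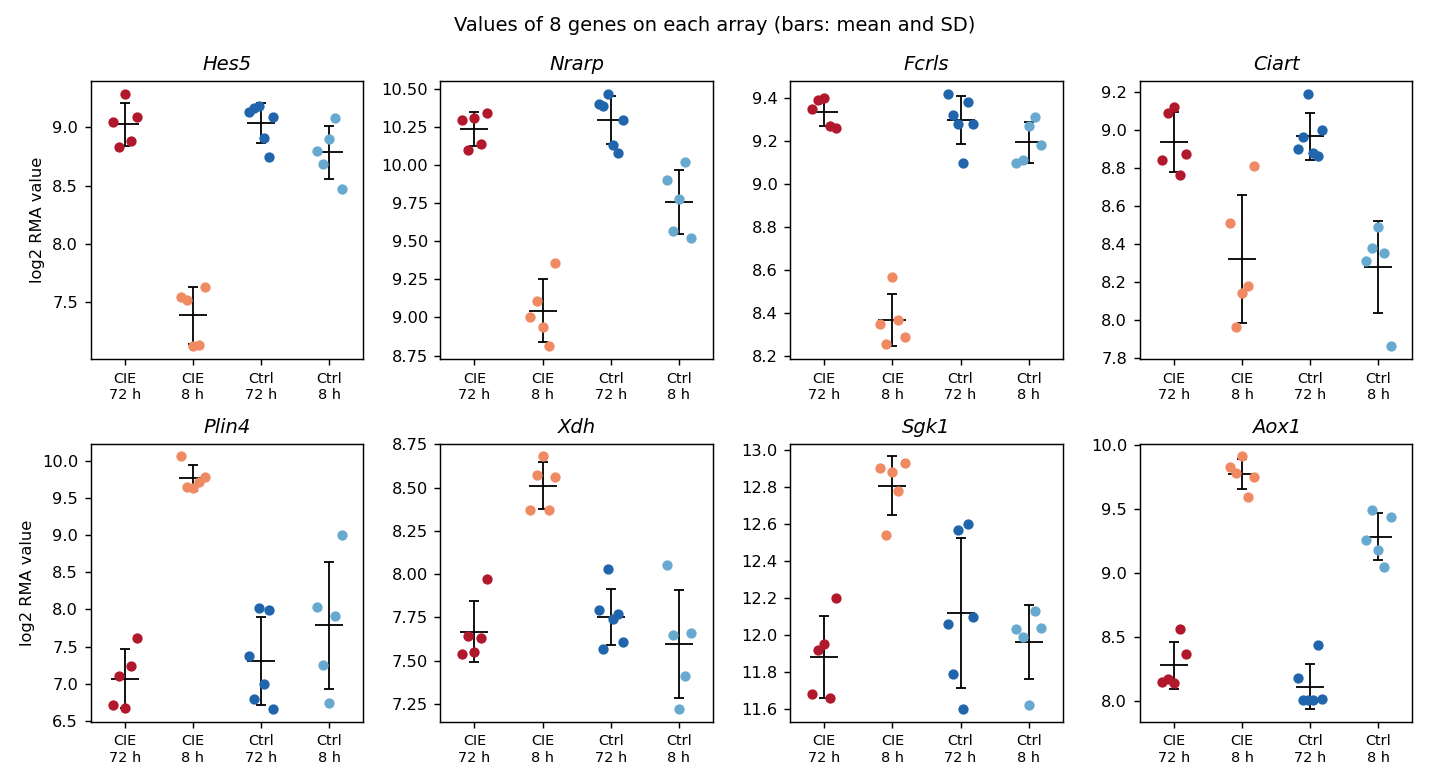
Log2 RMA values of 8 genes on each array of the CIE 72 h, CIE 8 h, Ctrl 72 h and Ctrl 8 h groups, 1 point per mouse, with bars for the mean and SD. Hes5, Nrarp and Fcrls were lower and Plin4, Xdh, Sgk1 and Aox1 higher in every CIE mouse at 8 h than in any at 72 h, whereas the CIE groups overlapped for Ciart.

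The other large rises were in genes of varied kinds. Wfdc18, of the whey acidic protein family, rose by 1.16 (adjusted p = 0.000923). Gkn3, a gastrokine found in arterial endothelium of the mouse brain, rose by 1.06 (adjusted p = 0.00387). Gm11627 rose by 0.84, Gpr17, a receptor of oligodendrocyte precursors committed to differentiate, by 0.71, Kcne1l, an accessory subunit of potassium channels, by 0.7, and Ngfr, the low-affinity neurotrophin receptor, by 0.65. Values at 72 h and 8 h did not overlap in CIE mice for any of these 6. They changed in the same direction in Ctrl mice, by 0.71, 0.35, 0.31, 0.58, 0.37 and 0.4 for Wfdc18, Gkn3, Gm11627, Gpr17, Kcne1l and Ngfr, with none called. Gpr17 was 1 of 12 oligodendrocyte precursor markers, and Itm2a (0.24, adjusted p = 0.00536) was 1 of 20 endothelial and pericyte markers. No other gene of either list was called, and 0.0934% of all genes were called higher at their brightest probeset. Wfdc18, Gpr17 and Ngfr were each far higher in replicate 63 than in the other 4 mice at 72 h.

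The 4 called probesets with the largest rises were annotated to several hemoglobin genes at once, and so stand for the family and not for a gene; they were singled out after their values were seen. They rose by 2.02 to 2.28 in CIE mice and changed by 0.08 to 0.26 in Ctrl mice, and the difference of the changes was 1.91 to 2.01, past an adjusted p of 0.05 for 2 of the 4. The first was at 12.41, 12.59, 12.55, 11.61 and 12.89 in CIE mice at 72 h, against 9.47, 10.75, 11.21, 9.82 and 10.44 at 8 h. In Ctrl mice it lay between 12.2 and 13.16 at 72 h and between 12.36 and 12.79 at 8 h, so that the CIE mice at 8 h were the low group of these 4. Right after the last session (0 h) its mean was already lower in CIE mice. It was 11.22 there (9.96 to 12.05), against 12.24 in Ctrl mice (11.42 to 12.67). Hemoglobin messenger RNA comes mostly from red cells in the vessels, and traces are made by neurons. The single-gene probesets of red cells were dim: Alas2, the first enzyme of heme synthesis in red cells, changed by 0.57 (adjusted p = 0.172) and lay between 5.94 and 6.68 at 72 h and between 5.69 and 5.99 at 8 h, and Hba-a1 and Slc4a1 changed by 0.07 and 0.05. Over 7 blood cell markers the array means ran from 5.2 to 5.36 at 72 h and from 5.02 to 5.18 at 8 h in CIE mice. Limma called 0 of these genes, and 2 had an unadjusted p under 0.05, against 7.1% of all probesets. The part of residual blood in these values was not tested.

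Plin4, a coat protein of lipid droplets, had the largest fall of all called probesets. It was at 6.72, 7.1, 6.67, 7.24 and 7.62 in CIE mice at 72 h, against 10.06, 9.65, 9.63, 9.72 and 9.78 at 8 h. The change was -2.7 ± 0.38 (adjusted p = 2.29e-05), which left 0.154 of the level at 8 h on the linear scale. In Ctrl mice the values spread widely at both times, at 6.66 to 8.02 at 72 h and 6.74 to 9 at 8 h. Their change was -0.48, and the difference of the changes, -2.22 ± 0.52, did not pass (adjusted p = 0.236).

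Plin4 is also among the genes that glucocorticoids raise, and other members of that list were lower too. Of 25 measured genes 7 were called lower in CIE mice and none higher, against 0.335% of all genes called lower at their brightest probeset, and 24 of 25 changes were negative. As for all lists here, the members were chosen with earlier results of these data known, so that such counts are not independent of that choice. In 15 of the 25 every CIE mouse at 72 h lay below every one at 8 h, which held for 1.49% of all genes. The median change was -0.366 in CIE mice and 0.018 in Ctrl mice, where no gene of the list was called. The 7 were Plin4, Sult1a1, Sgk1, Tsc22d3, Hif3a, Mt2 and Mt1. Sult1a1, a sulfotransferase, fell by 1.23 ± 0.17 (adjusted p = 2.06e-05), with 7.88 to 8.5 at 72 h and 9.11 to 9.87 at 8 h. Sgk1, a kinase that regulates ion channels, was at 11.68, 11.92, 11.95, 11.66 and 12.2 at 72 h, against 12.9, 12.54, 12.88, 12.78 and 12.93 at 8 h, and fell by 0.92 ± 0.19 (adjusted p = 0.00667). Tsc22d3, which encodes the leucine zipper protein GILZ, fell by 0.83 (adjusted p = 0.00647), at 9.26 to 9.78 against 10.18 to 10.29. The metallothioneins Mt2 and Mt1, which bind zinc, fell by 0.37 and 0.22. In Ctrl mice Sgk1, Tsc22d3 and Hif3a changed by 0.16, 0.25 and 0.04, opposite in sign. Plin4, Sult1a1, Mt2 and Mt1 changed there by -0.48, -0.31, -0.17 and -0.13, with the same sign as in CIE mice. The differences of the changes for Sgk1 and Tsc22d3, -1.08 for each, did not pass (adjusted p of 0.275 for Sgk1 and 0.152 for Tsc22d3).

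The other 18 members were not called. Arrdc2 changed by -1.18 (adjusted p = 0.0479) and Fkbp5, a co-chaperone of the receptor, by -0.4 (adjusted p = 0.114), at 9.89 to 10.04 in CIE mice at 72 h and 10.13 to 10.69 at 8 h. Per1 changed by 0.02 (adjusted p = 0.998). Of the 8 genes of the receptor and its machinery none was called by limma, with a median of 0.025. An unadjusted p under 0.05 was found for 2 of them, against 7.1% of all probesets. The mean of the list on each array was 9.1, 9.19, 9.1, 9.22 and 9.42 in CIE mice at 72 h, against 9.75, 9.74, 9.68, 9.64 and 9.8 at 8 h. In Ctrl mice it ran from 9.1 to 9.44 at 72 h and from 9.06 to 9.43 at 8 h, so that only the CIE mice at 8 h stood apart among these 4 groups.

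Sgk1 is shown because 1 of its 6 RefSeq promoters (GRCm38.p6, chr10:21993640-21993939, plus strand) is among the 3 of 32851 promoters (0.00913%) that hold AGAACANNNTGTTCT, the palindrome that the glucocorticoid receptor binds, here in capitals.
Sgk1: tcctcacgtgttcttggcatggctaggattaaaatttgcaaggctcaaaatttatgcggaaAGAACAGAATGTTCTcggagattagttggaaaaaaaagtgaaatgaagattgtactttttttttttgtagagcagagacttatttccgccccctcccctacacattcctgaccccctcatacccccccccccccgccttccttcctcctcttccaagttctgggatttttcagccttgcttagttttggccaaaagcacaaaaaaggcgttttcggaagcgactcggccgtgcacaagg
No other gene of the list held it in this window, out of 21 genes matched to a promoter.

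**Figure D3:**
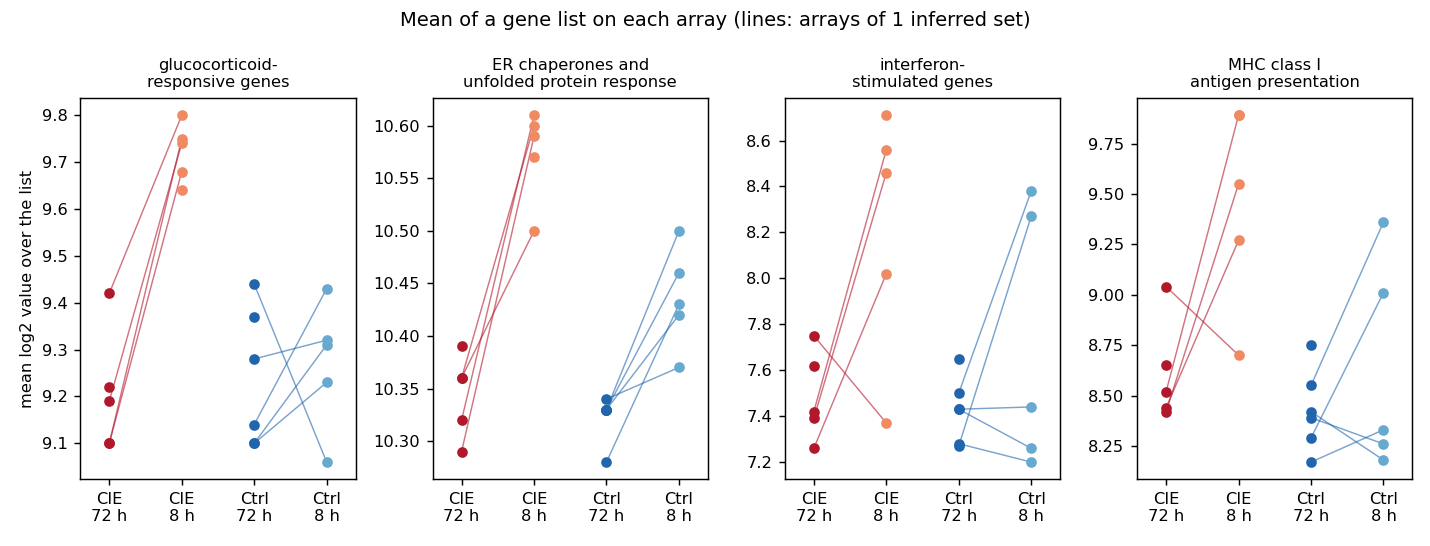
Mean log2 value over 4 gene lists on each array, with 1 point per mouse and the CIE 72 h, CIE 8 h, Ctrl 72 h and Ctrl 8 h groups from left to right; lines join arrays of the same inferred hybridization set. The glucocorticoid list lay between 9.1 and 9.42 at 72 h and between 9.64 and 9.8 at 8 h in CIE mice, and the interferon list at 8 h was split in both treatments.

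Of 29 measured genes of ER chaperones and the unfolded protein response, 8 were called lower in CIE mice at the brightest probeset and 9 at any. None was called higher, and the other 21 were not called at the brightest. Of all genes 0.335% were called lower in CIE mice at their brightest probeset. In CIE mice 28 of the 29 changes were negative. In 15 of 29 the CIE mice at 72 h all lay below those at 8 h, which held for 1.49% of all genes. The median change was -0.151 in CIE mice and -0.091 in Ctrl mice, where 2 genes, Pdia6 and Sdf2l1, were called lower at the brightest probeset (0.0715% of all genes) and 3 at any. The list mean ran from 10.29 to 10.39 at 72 h and from 10.5 to 10.61 at 8 h in CIE mice, and from 10.28 to 10.34 at 72 h and from 10.37 to 10.5 at 8 h in Ctrl mice.

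Manf, a secreted ER stress protein with neurotrophic activity, was at 10.58, 10.43, 10.44, 10.61 and 10.43 in CIE mice at 72 h, against 11.09, 11.13, 11.02, 11.04 and 11.11 at 8 h. It fell by 0.58 ± 0.06 (adjusted p = 3.27e-08), against a change of -0.16 in Ctrl mice, and the difference of -0.42 passed at 0.05 (adjusted p = 0.0493). Sdf2l1, which assists the chaperone Hspa5, fell in both: by 0.73 ± 0.09 in CIE mice (adjusted p = 9.16e-07), at 8.2 to 8.54 against 8.98 to 9.22, and by 0.58 ± 0.08 in Ctrl mice (adjusted p = 0.000146), at 8.06 to 8.26 against 8.53 to 8.92. Calr, the calcium-binding chaperone calreticulin, fell by 0.45 in CIE mice (adjusted p = 2.15e-06) and by 0.27 in Ctrl mice (adjusted p = 0.0083). The other called members were Pdia4 (-0.51), Hspa5 (-0.41), Pdia6 (-0.37), Dnajb11 (-0.29) and Hsp90b1 (-0.29), which are chaperones or disulfide isomerases of the ER. With only the 10 CIE arrays in the fit, Pdia4 was still called and the other 4 were not, with adjusted p of 0.0578 for Hspa5, 0.049 for Pdia6, 0.061 for Dnajb11 and 0.0641 for Hsp90b1. Dnajc3, an inhibitor of the kinase PERK, fell by 0.51 (adjusted p = 0.000304) at 1 of its 5 probesets and changed by -0.2 at the brightest (adjusted p = 0.555). The stress transcription factors Atf4, Xbp1, Ddit3 and Atf6 were not called, with changes of -0.13, -0.09, -0.1 and -0.01. Another transcription factor, Atf5, was not counted in this list. It fell by 0.59 in CIE mice (adjusted p = 0.00671) and changed by -0.3 in Ctrl mice (adjusted p = 0.527).

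The promoters of 4 of these genes are shown because they hold the ER stress response element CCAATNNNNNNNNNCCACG, in capitals on whichever strand it lies. It was found in 39 of 32851 promoters (0.119%) and in 9 of the 25 ER genes matched to a promoter. The regions are chr2:34771840-34772139 (plus strand) for Hspa5, chr8:84846882-84847181 (minus) for Calr, chr14:118937682-118937981 (plus) for Dnajc3 and chr12:17266339-17266638 (plus) for Pdia6, all in GRCm38.p6 from RefSeq.
Hspa5: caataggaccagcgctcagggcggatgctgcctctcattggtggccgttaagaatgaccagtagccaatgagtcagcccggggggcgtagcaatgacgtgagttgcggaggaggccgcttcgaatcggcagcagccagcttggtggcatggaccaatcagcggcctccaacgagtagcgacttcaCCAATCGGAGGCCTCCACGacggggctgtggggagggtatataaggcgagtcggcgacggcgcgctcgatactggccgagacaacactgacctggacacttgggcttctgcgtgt
Calr: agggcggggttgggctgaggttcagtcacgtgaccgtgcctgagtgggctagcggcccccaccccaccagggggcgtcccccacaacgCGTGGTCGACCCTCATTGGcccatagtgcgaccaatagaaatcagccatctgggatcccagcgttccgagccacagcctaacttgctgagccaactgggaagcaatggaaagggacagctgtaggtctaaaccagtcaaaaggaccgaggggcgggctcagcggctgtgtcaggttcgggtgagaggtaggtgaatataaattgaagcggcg
Dnajc3: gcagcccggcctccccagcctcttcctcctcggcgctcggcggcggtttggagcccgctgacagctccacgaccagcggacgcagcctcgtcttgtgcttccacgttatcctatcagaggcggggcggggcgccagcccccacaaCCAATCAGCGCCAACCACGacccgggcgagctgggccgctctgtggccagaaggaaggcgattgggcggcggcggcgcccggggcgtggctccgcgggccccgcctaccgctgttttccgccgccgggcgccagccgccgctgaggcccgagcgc
Pdia6: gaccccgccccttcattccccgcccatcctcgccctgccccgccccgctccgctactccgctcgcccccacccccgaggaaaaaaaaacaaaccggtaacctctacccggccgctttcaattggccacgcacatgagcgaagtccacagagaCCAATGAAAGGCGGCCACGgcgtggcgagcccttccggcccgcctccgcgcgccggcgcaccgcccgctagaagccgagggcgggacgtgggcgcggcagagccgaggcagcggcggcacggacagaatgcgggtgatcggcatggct
The other genes of the list that held it were Canx, Creld2, Derl3, Hsp90b1 and Syvn1. Of these only Hsp90b1 was called, and Canx (-0.17, adjusted p = 0.0144) and Derl3 (-0.33, adjusted p = 0.0259) passed at 0.05, while Creld2 changed by -0.22 and Syvn1 by -0.07.

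Aox1, Mgst1 and probesets of the Ugt1a family fell in both treatments. Of 19 genes of ethanol and aldehyde metabolism limma called 0 in either. An unadjusted p under 0.05 was found for 6 in CIE mice and 4 in Ctrl mice, against 7.1% and 7.3% of all probesets. Aox1, an aldehyde oxidase, was at 8.15, 8.17, 8.14, 8.56 and 8.37 in CIE mice at 72 h, against 9.83, 9.78, 9.91, 9.59 and 9.75 at 8 h, and at 8.01 to 8.44 in Ctrl mice at 72 h against 9.05 to 9.49 at 8 h. It fell by 1.49 ± 0.13 in CIE mice (adjusted p = 1.12e-09) and by 1.17 ± 0.13 in Ctrl mice (adjusted p = 1.06e-06), with no overlap in either. The 3 called probesets of the Ugt1a family, glucuronosyltransferases that share exons, were annotated to 8 genes each and were also singled out afterwards. They fell by 0.78 to 0.92 in CIE mice and by 0.83 to 1.01 in Ctrl mice. Mgst1, a microsomal glutathione transferase, fell by 0.76 in CIE mice (adjusted p = 1.49e-08) and by 0.46 in Ctrl mice (adjusted p = 0.00084). For none of these did the difference of the changes pass. Mice of both treatments had received pyrazole before each cycle.

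The Nrf2 list protects against oxidants. Of its 18 measured genes 3 were called lower in CIE mice at the brightest probeset, against 0.335% of all genes, and 4 at any. In Ctrl mice limma called 0 at the brightest probeset, with 5 at an unadjusted p under 0.05, and 1 at any: Gstm1 fell by 0.46 there (adjusted p = 0.00218) at another of its probesets. Osgin1, a growth inhibitor induced by oxidative stress, was at 5.39, 5.6, 5.53, 5.59 and 5.55 in CIE mice at 72 h, against 6.21, 6.34, 6.12, 6.01 and 5.97 at 8 h, and fell by 0.6 (adjusted p = 6.24e-07). Gstm1, a glutathione transferase, fell by 0.56 (adjusted p = 0.000217), Srxn1, which repairs peroxiredoxins, by 0.55 (adjusted p = 0.000339), and Slc7a11, the cystine transporter, by 0.45 (adjusted p = 0.00816), though by 0.48 with an adjusted p of 0.0499 at its brightest probeset. Nfe2l2, which encodes Nrf2 itself, changed by -0.09, Nqo1 by -0.3 (adjusted p = 0.167) and Hmox1 by -0.46 (adjusted p = 0.0195). At the probesets given for CIE mice, the 4 genes changed in Ctrl mice by -0.18, -0.35, -0.31 and -0.13 for Osgin1, Gstm1, Srxn1 and Slc7a11.

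Xdh, xanthine dehydrogenase, an enzyme of purine breakdown, was the gene besides Hes5 whose change differed between treatments. It was at 7.54, 7.64, 7.55, 7.63 and 7.97 in CIE mice at 72 h, against 8.37, 8.57, 8.68, 8.37 and 8.56 at 8 h. It fell by 0.85 ± 0.12 (adjusted p = 3.05e-05). In Ctrl mice it lay between 7.57 and 8.03 at 72 h and between 7.22 and 8.05 at 8 h, with a change of 0.15. The difference was -1 ± 0.17 (adjusted p = 0.00703), the highest adjusted p of the 3 called differences. With the inferred hybridization sets as a block, 2 of those 3 probesets were still called. The other 12 measured genes of purine breakdown and adenosine signalling were not called.

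Some genes that astrocytes express were called lower in CIE mice. Gjb6, the gap junction protein connexin 30, was at 9.3, 9.23, 9.21, 9.43 and 9.49 in CIE mice at 72 h, against 10.22, 10.79, 10.59, 10.25 and 10.57 at 8 h. It fell by 1.15 ± 0.13 (adjusted p = 4.2e-07), and in Ctrl mice the groups did not overlap either (change of -0.64, adjusted p = 0.0107). Etnppl, which breaks down phosphoethanolamine, fell by 1.65 (adjusted p = 4.88e-05), at 5.58 to 6.4 against 6.77 to 8.01. In Ctrl mice it changed by -0.24. At its brightest probeset Etnppl fell by 1.47 in CIE mice (adjusted p = 0.000115) and changed by -0.91 in Ctrl mice (adjusted p = 0.0623). Htra1, a secreted protease, fell by 0.69 (adjusted p = 0.000543). Aldoc, a glycolytic aldolase, fell by 0.64 (adjusted p = 3.23e-05) at 1 probeset and changed by -0.08 at its brightest (adjusted p = 0.454). In Ctrl mice Htra1 changed by -0.21 (adjusted p = 0.722) and Aldoc, at the first of these probesets, by -0.43 (adjusted p = 0.0146). Of 20 astrocyte markers 3 were called lower at the brightest probeset, against 0.335% of all genes. The defining Aqp4, Slc1a2, Slc1a3 and Gja1 changed by 0.13, -0.03, 0.14 and -0.1 with none called. The list median was -0.07 in CIE and -0.044 in Ctrl mice.

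In each lipid list 1 or 2 genes were called lower in CIE mice, against 0.335% of all genes at their brightest probeset. Insig1, which retains the sterol sensor in the ER, fell by 0.7 ± 0.11 (adjusted p = 8.28e-05), at 9.59 to 9.88 in CIE mice at 72 h against 10.09 to 10.63 at 8 h, and was the 1 gene called of 22 in cholesterol synthesis and uptake. The mitochondrial acetyl-CoA carboxylase Acacb fell by 0.47 and the acyl-CoA synthetase Acsl3 by 0.22, 2 of 17 genes of fatty acid synthesis. With Plin4, Angptl4, an inhibitor of lipoprotein lipase that fell by 0.55 (adjusted p = 0.00713), made 2 of 20 genes of lipid droplets and fatty acid use. In Ctrl mice Insig1, Acacb, Acsl3 and Angptl4 changed by -0.23, -0.15, -0.14 and -0.11, and none was called. The difference of the changes passed for none of them, with adjusted p of 0.766, 0.947, 0.951 and 0.869.

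Among other large falls, Dmp1, an acidic matrix protein, fell by 1.47 (adjusted p = 5.74e-05), at 6.07 to 6.67 in CIE mice at 72 h and 7.48 to 8.43 at 8 h, and changed by -0.95 in Ctrl mice without overlap (adjusted p = 0.0313). Ptgds, prostaglandin D2 synthase of the meninges and oligodendrocytes, fell by 1.39 (adjusted p = 0.00712), at 11.42 to 12.51 against 12.74 to 13.34, and by 0.84 with an adjusted p of 0.0224 at its brightest probeset. The ADP-ribosyltransferase Parp3 and the stress-induced Nupr1 fell by 0.8 and 0.78. None of these 4 was called in Ctrl mice.

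**Figure D4:**
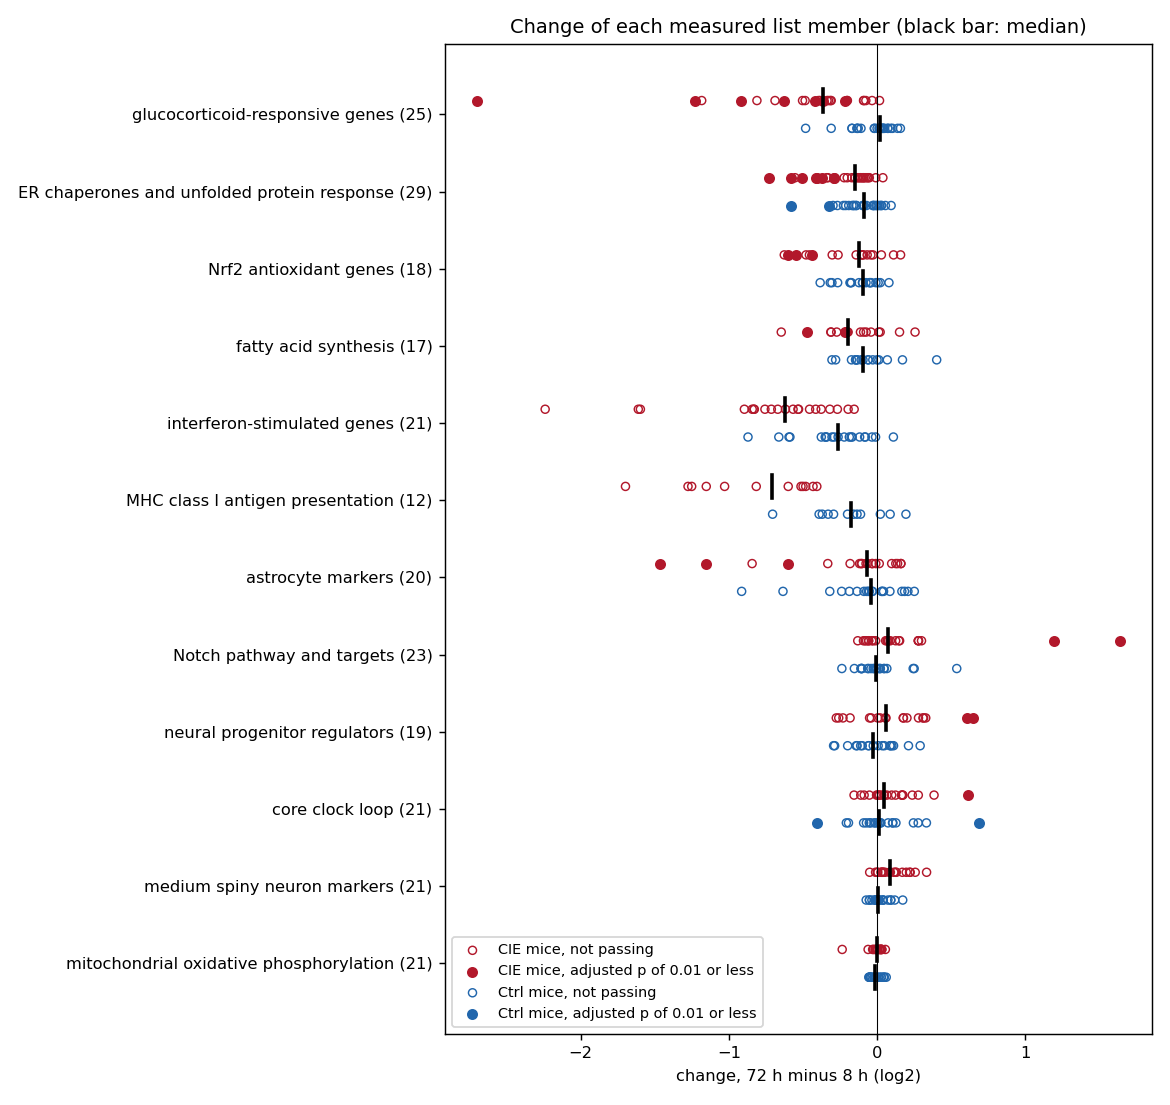
Change from 8 h to 72 h (log2, x axis) of each measured member of 12 gene lists, at its brightest probeset, in CIE mice (upper row of each pair) and Ctrl mice (lower row); filled points were called and black bars are medians. The glucocorticoid list had 7 called members in CIE mice and none in Ctrl mice, and the interferon and MHC class I lists lay below 0 in CIE mice with none called.

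Since the 2 times fall at different times of day, the core clock loop was read in both treatments. Of 21 genes, Ciart, a repressor of Clock and Arntl, was called higher in CIE mice, by 0.62 ± 0.13 (adjusted p = 0.0067). It was at 8.84, 9.09, 9.12, 8.76 and 8.87 at 72 h, against 8.51, 7.96, 8.14, 8.18 and 8.81 at 8 h, where 1 of the 5 mice lay within the range at 72 h. It rose by 0.69 ± 0.12 in Ctrl mice (adjusted p = 0.00231), at 8.86 to 9.19 against 7.86 to 8.49, and the difference was -0.07 (adjusted p = 0.979). Arntl, the activator of the loop, was called lower in Ctrl mice (-0.41, adjusted p = 0.00238) and changed by -0.16 in CIE mice (adjusted p = 0.678), with a difference of 0.25 that did not pass (adjusted p = 0.947). Dbp, an output transcription factor of the clock, changed by 0.38 in CIE mice (adjusted p = 0.0147) and by 0.28 in Ctrl mice. No other gene of the list was called in CIE mice. The repressors Per1, Per2 and Per3 changed by 0.02, 0.1 and 0.21, Nr1d1 and Nr1d2 by 0.28 and 0.17, and Cry1 by -0.09. Clock changed by 0.19 and Npas2 by -0.36 at their most changed probesets, and by 0.05 and -0.11 at the brightest. The promoter of Ciart (GRCm38.p6, chr3:95882179-95882478, minus strand, RefSeq) is shown for its E-boxes, the letters CACGTG that the Clock and Arntl pair binds, which occur in 7.15% of all promoters and in 5 of 18 clock genes matched to a promoter.
Ciart: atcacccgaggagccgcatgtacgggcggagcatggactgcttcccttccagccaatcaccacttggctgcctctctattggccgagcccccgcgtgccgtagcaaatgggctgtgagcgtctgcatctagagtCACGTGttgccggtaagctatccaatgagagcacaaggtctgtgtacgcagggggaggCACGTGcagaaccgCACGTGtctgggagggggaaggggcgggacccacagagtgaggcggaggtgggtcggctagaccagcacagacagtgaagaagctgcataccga
There were 3 matches in this promoter.

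Genes that follow neuronal activity gave 1 call per list in CIE mice, where 0.335% of all genes were called lower at their brightest probeset. Of 24 immediate early transcription factors only Crem was called in CIE mice (-0.39, adjusted p = 0.00796), and it changed by -0.35 in Ctrl mice (adjusted p = 0.0273). Fosl2 changed by -0.54 in CIE mice (adjusted p = 0.0364) and fell by 0.67 in Ctrl mice (adjusted p = 0.00597). Nr4a3 changed by -0.37 in CIE mice (adjusted p = 0.365) and fell by 0.66 in Ctrl mice (adjusted p = 0.00813). The difference of the changes passed for neither, with adjusted p of 0.963 for Fosl2 and 0.95 for Nr4a3. Of 26 activity-induced effectors Vgf, a secreted neuropeptide precursor, fell by 0.35 in CIE mice (adjusted p = 0.000946) and changed by -0.25 in Ctrl mice. By limma 9 of the 26 had an unadjusted p under 0.05 in each treatment, with 21 changes negative in CIE and 23 in Ctrl mice. Of the 24 transcription factors 5 had such a p in CIE and 8 in Ctrl mice. It was found for 7.1% of all probesets in CIE mice and 7.3% in Ctrl mice. Heat shock genes gave 0 calls of 18 by limma in CIE mice and 3 lower in Ctrl mice, against 0.0715% of all genes there at their brightest probeset. An unadjusted p under 0.05 was found for 5 of the 18 in CIE mice and 15 in Ctrl mice, against 7.1% of all probesets in CIE mice and 7.3% in Ctrl mice. The 3 were Hspb1, Hsph1 and Hspa4l, and the difference of the changes passed for 0 of the 18 by limma, with 7 at an unadjusted p under 0.05. Hspb1 fell by 0.52 in Ctrl mice (adjusted p = 0.00084) and changed by -0.29 in CIE mice (adjusted p = 0.154), and the difference of 0.23 did not pass (adjusted p = 0.95).

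The interferon-stimulated and MHC class I lists had the lowest medians of all lists in CIE mice, and no gene of either was called by limma. An unadjusted p under 0.05 was found for 15 of 21 interferon genes and all 12 MHC class I genes in CIE mice and for 1 of each in Ctrl mice, against 7.1% of all probesets in CIE mice. All 21 interferon genes had negative changes, with a median of -0.618 in CIE and -0.263 in Ctrl mice, and all 12 MHC class I genes had negative changes, with a median of -0.708 in CIE and -0.179 in Ctrl mice. The list mean of the interferon genes was 7.42, 7.26, 7.39, 7.62 and 7.75 in CIE mice at 72 h, against 8.56, 8.02, 8.46, 8.71 and 7.37 at 8 h. Thus 4 of the 5 CIE mice at 8 h were high and replicate 51 was as low as the mice at 72 h. Ctrl mice at 8 h were split too, with 8.27 and 8.38 in replicates 4 and 8 and 7.2 to 7.44 in the other 3. Igtp, an interferon-induced GTPase and a resistance factor against intracellular parasites, had the largest change of the list, -2.24 ± 0.49 (adjusted p = 0.0132). It was at 7.83, 7.66, 7.85, 8.29 and 8.88 at 72 h, against 11.08, 9.67, 10.88, 11.39 and 8.68 at 8 h, so that replicate 51 alone at 8 h lay within the range at 72 h. Irgm1, of the same family, changed by -1.6 (adjusted p = 0.0121). Without replicate 51 the adjusted p fell to 0.00175 for Igtp and 0.000761 for Irgm1. Of the 10 omissions of a single CIE array, this was the only 1 in which either passed. Over the others the adjusted p reached 0.0698 for Igtp and 0.0664 for Irgm1. H2-D1, a classical MHC class I gene, changed by -0.62 (adjusted p = 0.0793) at the probeset of lowest p of its 9, and by -0.82 at the brightest (adjusted p = 0.542).

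Neuronal and housekeeping lists showed 0 calls by limma in CIE mice. No gene had an unadjusted p under 0.05 among 21 medium spiny neuron markers (median 0.083), 8 opioid genes, 15 GABA and glycine receptor genes, 15 cytosolic ribosomal proteins (0.014) and 21 oxidative phosphorylation subunits (0.002). Such a p was found for 7.1% of all probesets. It was found for 1 of 16 striatal interneuron markers, 2 of 15 dopamine genes and 1 of 21 glutamate receptor genes. For 2 of 18 potassium channels, 1 of 29 chromatin modifiers and 5 of 33 splicing genes it was found too. Other lists without a call had more: 12 of 26 FoxO and energy-sensing genes and 6 of 19 genes of ethanol and aldehyde metabolism. It was also found for 7 of 23 cytokine genes and 4 of 18 p53 targets. In Ctrl mice it was 2 for the FoxO list, 4 for ethanol and aldehyde metabolism, 2 for cytokine genes and 0 for p53 targets. Oligodendrocyte and myelin markers had a median of 0.069 in CIE and 0.285 in Ctrl mice, and cortical pyramidal neuron markers 0.092 in CIE and -0.214 in Ctrl mice, also with 0 calls and none at an unadjusted p under 0.05 in CIE mice.

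Across all 4 times the 8 h level was set beside the earlier and later ones as a description without a test. In CIE mice the mean of Hes5 was 7.8 right after the last session, 7.39 by 8 h, 9.03 by 72 h and 9.01 after 7 d, while the Ctrl means ran from 8.79 to 9.04. Xdh averaged 8.28, 8.51, 7.67 and 7.54 in CIE mice at the same 4 times, and between 7.59 and 7.75 in Ctrl mice. Plin4 averaged 9.47, 9.77, 7.07 and 6.88 in CIE mice and 7.14, 7.79, 7.31 and 7.27 in Ctrl mice. For these 3 genes the CIE means at 72 h were closer to the Ctrl mean of the same time than at 8 h. Aox1 followed another course, with 9.12, 9.77, 8.28 and 7.86 in CIE mice and 9.38, 9.28, 8.11 and 7.94 in Ctrl mice. Hes5, Plin4, Xdh, Fcrls, Manf, Etnppl, Nr2e1, Nrarp, Sox21, Insig1 and H2-D1 were followed because they were known to differ between CIE and Ctrl mice at 8 h on the same arrays, so that their change by 72 h in CIE mice is not independent of that choice.

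**Figure D5:**
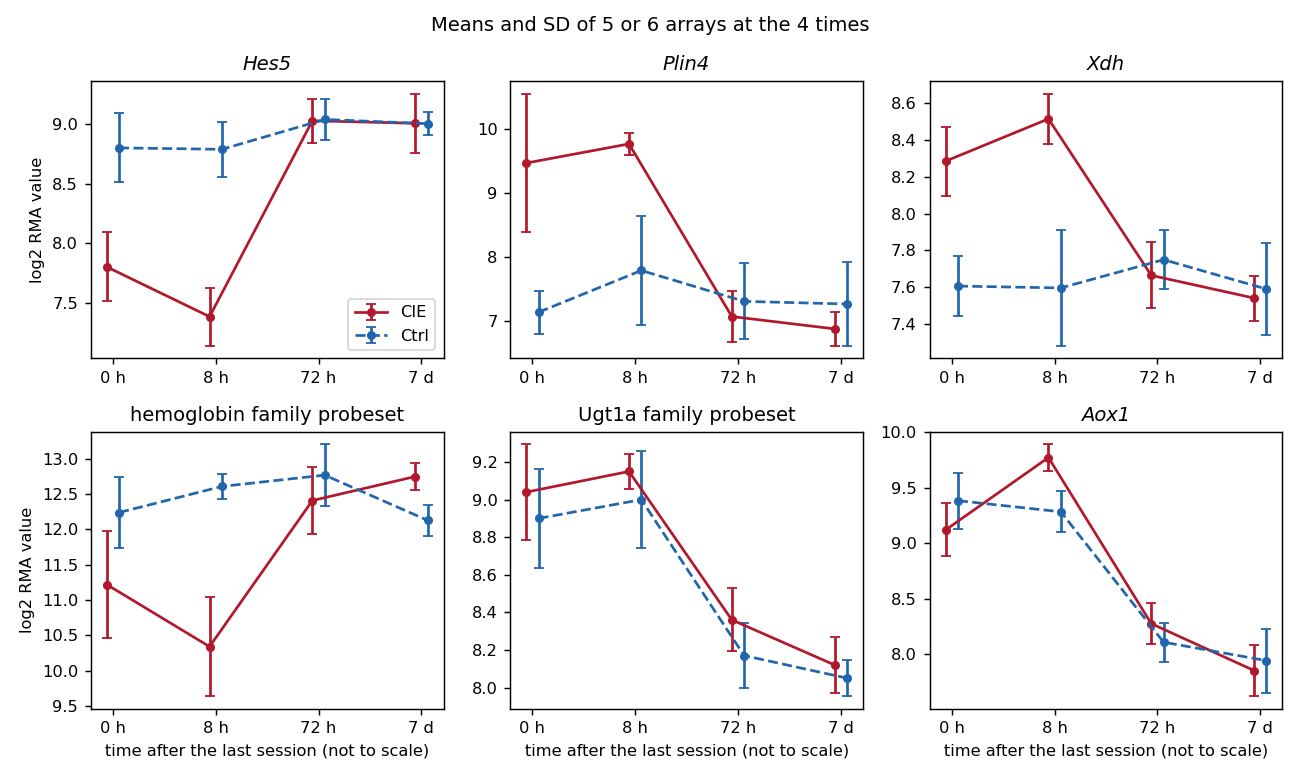
Means with SD over 5 or 6 arrays at 0 h, 8 h, 72 h and 7 d (x axis, not to scale; y axis, log2 RMA value) for CIE mice (solid) and Ctrl mice (dashed). For Hes5, Plin4, Xdh and the first hemoglobin family probeset the 2 treatments were apart at 8 h and close at 72 h, and the Ugt1a family probeset and Aox1 were lower from 72 h on in both.

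The 2 times could also be compared inside 4 sets of arrays that appear to have been hybridized together and hold 1 CIE mouse of each time. The change had the same sign in all 4 sets for every called gene named above. It ran from 1.31 to 2.17 for Hes5, from 0.83 to 1.13 for Fcrls, from -3.34 to -2.17 for Plin4, from -1.13 to -0.59 for Xdh, from -0.7 to -0.51 for Manf and from -1.77 to -1.37 for Aox1. For Igtp it was -3.26, -2.02, -3.03 and 0.2. With the sets as a block, 13 genes named above were no longer called, though each stayed under an adjusted p of 0.03: Gpr17, Nr2e1, Id4, Itm2a, Ptgds, Sgk1, Tsc22d3, Hif3a, Mt1, Crem, Acacb, Acsl3 and Angptl4. Igtp then passed, with an adjusted p of 0.00946. With only the 10 CIE arrays in the fit, which leaves fewer arrays to estimate the spread, Gkn3, Gpr17, Kcne1l, Ciart, Nr2e1, Nupr1, Mt2, Mt1, Crem, Vgf, Dnajc3, Acacb, Acsl3, Angptl4, Srxn1, Sox21, Id4, Itm2a, Hspa5, Dnajb11, Pdia6, Hsp90b1, Hif3a and 3 hemoglobin family probesets were no longer called, with adjusted p between 0.0103 and 0.163. When each of the 10 CIE arrays was left out in turn, Hes5, Nrarp, Fcrls, Fzd2, Plin4, Aox1, Gjb6, Xdh, Sult1a1, Manf, Sdf2l1, Calr, Insig1 and Osgin1 passed all 10 times. Tsc22d3 passed in 1 of the 10, Sgk1, Gpr17, Nr2e1, Id4, Ptgds, Crem, Acsl3, Angptl4 and Hif3a in 2, Ciart, Mt1, Acacb and Itm2a in 3, and Slc7a11 in 0. Gkn3 and Parp3 passed in 5.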

How the data were processed

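RNA of nucleus accumbens was hybridized to Affymetrix mouse expression arrays. The deposited values are log2 expression values that the authors made with RMA background correction and quantile normalization in each hybridization batch, quantile normalization of all arrays, and ComBat on hybridization group. For RMA no version is given in the sources used here. Such batch correction uses up degrees of freedom that later tests do not see. Sets of arrays hybridized together were inferred from values equal within 2e-08 (6 sets of 6 to 8 arrays, 10 to 57 equal values within a set and at most 1 between sets), with at most 1 array of a group in a set.

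The 45037 probesets were fitted by linear models (limma, version 3.58.1, under R 4.3.3) over all 45 arrays with 8 group means and no covariate, and p was adjusted after Benjamini and Hochberg over all probesets. Probesets with a single symbol numbered 34945 (18193 genes), 932 had several symbols and 9160 had none, and 34741 matched RefSeq. Of 818 genes in 43 lists 749 were measured. Named genes were the 12 largest called rises and 12 largest called falls, up to 4 called members of a list, the clock list, the genes smallest in p for the difference of changes, and 11 genes known to differ at 8 h, with the lowest-p probeset taken for each gene. List members were taken at the brightest probeset, and other genes were named after their values were seen. The members and lists were chosen with earlier results of these data known. The method was tested on simulated data, and alternatives are given at the end. P-values measure the spread between mice of 1 experiment.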

Additional observations from a re-analysis of the deposited data

Results flagged for a closer look

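Over 88 named genes and family probesets, a mouse lay far from the rest of its group by Dixon's criterion in 10.2% of those looked at among CIE mice at 72 h, in 2.3% among CIE mice at 8 h, in 3.4% among Ctrl mice at 72 h and in 4.5% among Ctrl mice at 8 h. Chance gives about 5% of groups. Replicate 63 of the CIE mice at 72 h was the high mouse for Wfdc18 (9.58, the others 8.87 to 8.97), Gpr17 (9.84, the others 9.21 to 9.37), Ngfr (7.59, the others 7.24 to 7.29), Etnppl (6.4, the others 5.58 to 5.81), Ptgds (12.51, the others 11.42 to 11.67), Xdh (7.97, the others 7.54 to 7.64) and Htra1 (11.69, the others 11.33 to 11.38). It also had the highest myelin marker mean and the lowest cortical marker mean of the CIE mice at 72 h, and their part in these values was not tested. In the same group replicate 33 was high for Id4 (12.94, the others 12.53 to 12.63) and replicate 61 low for Per3 (9.3, the others 9.44 to 9.5).

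Among CIE mice at 8 h, replicate 15 was low for Rora (5.92, the others 6.17 to 6.25) and replicate 51 for Pdia4 (9.46, the others 9.7 to 9.74). Among Ctrl mice at 72 h, replicate 68 was low for Dmp1 (5.74, the others 6.13 to 6.29), replicate 52 high for Tsc22d3 (10.11, the others 9.43 to 9.63) and replicate 34 high for Bhlhe40 (10.16, the others 9.86 to 9.91). Among Ctrl mice at 8 h, replicate 79 was low for Ciart (7.86, the others 8.31 to 8.49), replicate 42 low for Sgk1 (11.62, the others 11.99 to 12.13) and Csnk1e (5.68, the others 5.81 to 5.86), and replicate 50 high for Cry1 (9.36, the others 9.12 to 9.16).

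The change from 8 h to 72 h differed between CIE and Ctrl mice in the test of the difference itself for Hes5 (1.39) and Xdh (-1.0).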

How the results depend on the processing

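No analysis paired by replicate number was possible because the groups compared share no numbers, and mice of the 2 times were matched only through the inferred hybridization sets. With only the arrays of the groups compared, 63 probesets were called in CIE mice (57 of them among the 130) and 2 in Ctrl mice. Array weights gave 309 in CIE mice, 238 in Ctrl mice and 17 for the difference of the changes, and the brightest probeset of each gene gave 24 in Ctrl mice. Leaving out 1 array at a time gave 72 to 131 calls in CIE mice, 15 to 41 in Ctrl mice and 2 to 3 for the difference. The CIE count was 72 without replicate 33 and 86 without replicate 29 at 72 h, and 82 without replicate 1 and 83 without replicate 23 at 8 h. The Ctrl count was 15 without replicate 79 and 22 without replicate 4 at 8 h. With the inferred hybridization sets as a block, 105 were called in CIE mice, 94 of them among the 130. For the difference 2 were called with that block, both among the 3 of the main fit. The cause of these shifts was not tested, apart from fewer arrays or genes. All of the 130 that a setting tested kept their sign. The small clock changes of 4 genes turned sign: Cry2 was 0.0124 with array weights and ran from -0.0617 to 0.0334 over the single omissions, Per1 from -0.0382 to 0.0736, Bhlhe40 from -0.0204 to 0.036 and Nfil3 from -0.117 to 0.0083. Dim probesets, such as those near 5, are the least precise.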
